A study of Brassica rapa with 28 samples.

Results

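The 100 most abundant transcripts that leaves of Brassica rapa gained in darkness were described across a foil-covering experiment in wild-type and BrphyB-3 plants. A gene entered the set by its wild-type means alone. Its mean had to be at least 1 CPM in the pre leaf and at least 200 CPM in the dark leaf, and the dark mean at least 4 times the pre mean. Of 48826 gene IDs, 250 met these thresholds, and the 100 with the highest wild-type dark mean were kept. CPM is a gene's count divided by the library's total count, times 1000000. Members were thus chosen by the wild-type pre and dark values, which are given without a test. Tests compared only groups that the choice had not used, although all 28 libraries entered the estimate of spread.

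Wild-type plants were line R-o-18, and BrphyB-3 is a single mutant line in that strain with a mutated phytochrome B gene. All plants were kept at 20°C under days of 16 h light and nights of 8 h, and were 3 weeks old at the first sampling. Leaf punches were taken 5 h after lights on, and 3 plants were pooled into each replicate. The pre and 24hr punches came from one leaf that was never covered, taken 24 h apart. A second, matched leaf was wrapped in foil at the time of pre. The dark punch was taken from this leaf when the foil came off, 48 h after 24hr, and the recovery punch from the same leaf a further 24 h later. Pools 3 to 6 of the wild type and pools 3 to 5 of the mutant were each sampled at all 4 stages, giving 28 libraries. Dark and recovery therefore differ from pre and 24hr by leaf and by day of sampling, and so by age, as well as by treatment. Dark was sampled 72 h after pre, while 24hr against pre spans only 24 h.

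Phytochrome B is a red-light receptor that moves to the nucleus in light and promotes the breakdown of transcription factors that act in darkness. In many plants, a single leaf kept dark while the rest of the plant stays lit lowers its photosynthesis transcripts. It turns to the use of stored carbon, amino acids and lipids, and can begin senescence. This set holds abundant transcripts of the covered leaf that were at least 4 times higher there than at pre in the wild type. Whether they take part in these processes was not tested. The deposited table gives gene IDs without names, and 0 of them matched the RefSeq gene table for Brassica rapa. No function is therefore assigned to any member, and tissue markers and the photoreceptor gene were not examined. Members are called by their rank in wild-type dark mean CPM, rank 1 being the highest, and 4 IDs are printed.

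Library totals ranged from 4928822 to 14159657 counts, and the shallowest library was the wild-type dark library of pool 4. Members were well counted. Their lowest count in any library was 3, and it was at least 1069 in each wild-type dark library and at least 358 in each mutant dark library. Scaling factors that correct for changed RNA composition (TMM) ran from 1.04 to 1.24 in the wild-type dark libraries and from 0.854 to 0.939 in wild-type pre. Folds of unscaled CPM between these stages are therefore larger than scaled ones. All tests below use the scaled counts.

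In the lit leaf the members together held a small share of the counts, and in the dark libraries they made up 7.77 to 13.4%. Singly they were not rare in the lit leaf. Among all 48826 gene IDs ordered by mean CPM at wild-type pre, the median place of a member was 1662. In wild-type pre they held 0.878, 0.908, 1.1415 and 1.34% of the counts in pools 3 to 6, a mean of 1.07% ± 0.216 (SD, n = 4). In wild-type dark they held 13.4, 7.77, 10.1 and 9.58%, a mean of 10.2% ± 2.34 (SD, n = 4). Every wild-type dark library lay far above every pre library. The choice of members required this of the means, though not of each library. The mutant libraries, which played no part in the choice, showed shares of the same size. They held 0.969, 1.03 and 0.965% at pre in pools 3 to 5, and 10.4, 8.33 and 11.3% at dark. The mutant pre mean was 0.989% ± 0.037 and the dark mean 10.0% ± 1.53 (both SD, n = 3). At 24hr the wild-type mean was 0.989% ± 0.279 and the mutant mean 1.13% ± 0.200, and at recovery they were 1.15% ± 0.234 and 1.09% ± 0.225 (SD, n = 4 and n = 3). In whole-leaf RNA, a change in the cells present and a change in the RNA of each cell cannot be told apart.

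**Figure D1:**
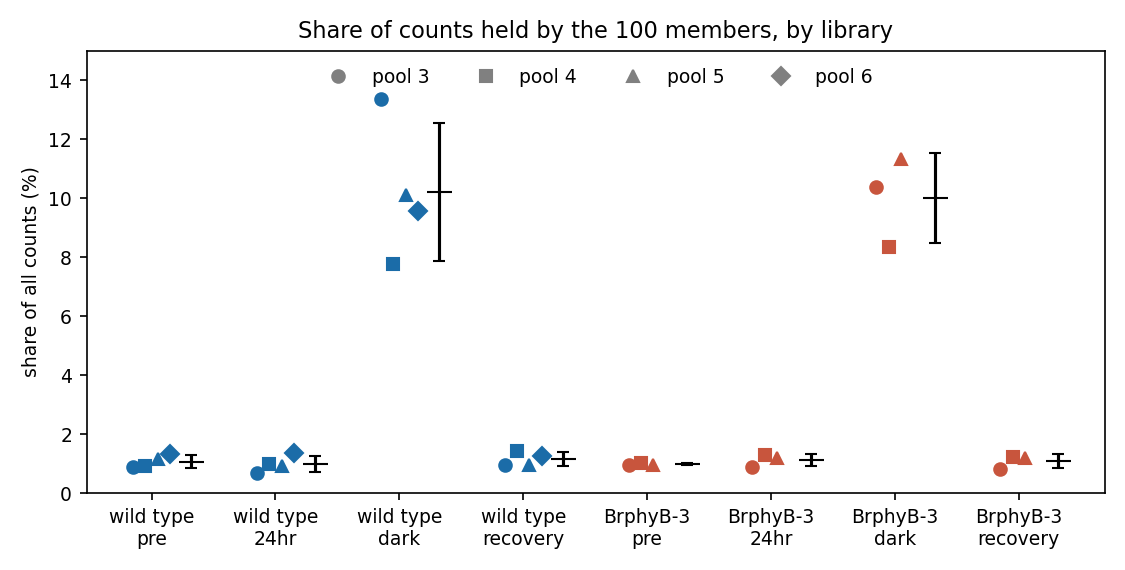
Share of all counts (y axis, %) held by the 100 members in each library, by genotype and stage (x axis). Each point is 1 library with its pool as the symbol, and bars are mean ± SD (n = 4 wild type, n = 3 BrphyB-3). Dark libraries lie between 7.77 and 13.4% and all others at or below 1.44%.

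Levels within the set were uneven. The median member had 97.6 CPM at wild-type pre and 779 CPM at dark, and group means at dark ran from 453 to 4051 CPM. No member had a mean of 1000 CPM or more in any lit or recovered group, while 37 did at wild-type dark and 37 at mutant dark. Among all gene IDs ordered by mean CPM, 47 members stood in the first 100 at wild-type dark and 44 at mutant dark, but 0 did in any other group. For wild-type pre and dark, both sets of counts follow largely from the choice of members. Ranks 1 to 10 carried 25.3% of the members' counts at wild-type dark and 24.3% at mutant dark, against 14.3% and 13.9% at pre.

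BraA03004557 was rank 1. In the wild type it had 94.8, 143, 529 and 397 CPM at pre in pools 3 to 6, and 3816, 4744, 4291 and 3353 CPM at dark. The mutant level rose from 64.1, 130 and 334 CPM at pre in pools 3 to 5 to 4929, 2812 and 5445 CPM at dark. The lit values were widely spread, and no pool came near its own dark value. The mutant log2 change from pre to dark was 4.41 (SE 0.88, edgeR quasi-likelihood test, Benjamini-Hochberg adjusted p 0.000189). At recovery the wild-type libraries held 57.1 to 286 CPM and the mutant libraries 83.1 to 181 CPM.

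BraA01002295 was rank 2 and had the wider span. At pre it had 14.6, 28.5, 37.6 and 46.4 CPM in wild-type pools 3 to 6, and at dark 6251, 1255, 2505 and 3448 CPM. The mutant had 20.1, 68.3 and 25.3 CPM at pre and 2495, 1543 and 2653 CPM at dark, a log2 change of 5.70 (SE 0.81, edgeR quasi-likelihood, adjusted p 2.99e-06). Among the wild-type dark libraries pool 3 was the highest and pool 4 the lowest. At recovery the wild type held 58.2 to 83.7 CPM, overlapping its 24hr range of 16.3 to 60.8 CPM.

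Ranks 3 to 10 all had wild-type dark means between 1889 and 3202 CPM. Rank 3 was the steadiest member at wild-type dark, with 3195, 3008, 3426 and 3181 CPM and a coefficient of variation (SD over mean) of 0.0535. Rank 4 had the largest fold of these 8, from a pre mean of 51.7 ± 40.02 CPM to 2738 ± 644 CPM (SD, n = 4). Rank 7 stood out at recovery, with a wild-type mean of 598 ± 368 CPM (SD, n = 4) and a mutant mean of 570 ± 418 CPM (SD, n = 3), the highest recovery level of any member in each genotype. Pool 4 was the highest in both, with 1101 CPM for the wild type and 1022 CPM for the mutant.

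The size of the wild-type gain ran from 4.12-fold at rank 51 to 183-fold at rank 31, with a median of 8.998. Of the 100 members, 45 gained at least 10-fold and 9 at least 50-fold. Rank 31 had 3.83, 8.67, 6.60 and 6.03 CPM at wild-type pre and 1902, 426, 789 and 1482 CPM at dark. Rank 49 gained 135-fold on the means, but its pre values were 18.96, 0.252, 3.496 and 1.004 CPM, so that pool 3 set most of the starting level. Ranks 16 and 95 lay at the median of the set. Rank 16 went from 135 to 217 CPM at wild-type pre to between 1287 and 1664 CPM at dark, and rank 95 from 35.0 to 75.5 CPM to between 219 and 781 CPM. Because every member was chosen for a high dark mean, those with small folds were necessarily already moderately abundant before darkness. Rank 51, for example, had 172 to 205 CPM at wild-type pre and 536 to 940 CPM at dark.

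**Figure D2:**
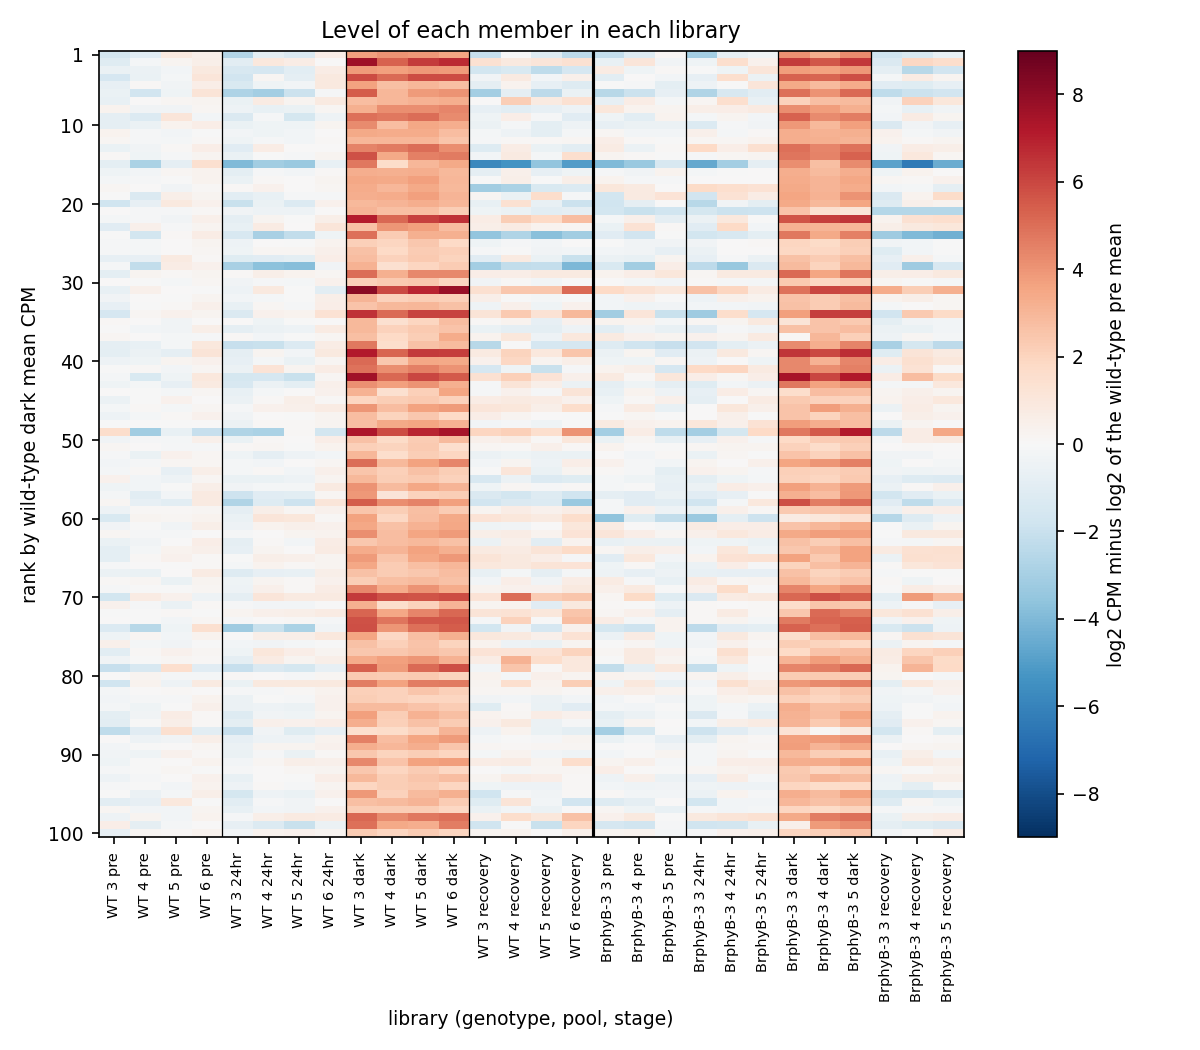
Level of each of the 100 members (rows, by rank) in each of the 28 libraries (columns), as log2 CPM minus the log2 wild-type pre mean, with 0.5 CPM added to both (colour). Thin lines part the stages and the thick line parts the genotypes. The dark columns of both genotypes stand out in almost every row, and the recovery columns return near the level of the lit leaf.

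The gain was tested in the mutant, whose libraries had not chosen the members. All 100 had a higher fitted level at mutant dark than at mutant pre, and 99 of them passed (edgeR quasi-likelihood, Benjamini-Hochberg adjusted p under 0.05 over 24992 gene IDs). Among all gene IDs tested, 26.6% passed in that direction and 28.9% in the other. The median log2 change of the members was 3.00, from 1.45 to 6.81, against a median of -0.08 over all gene IDs tested. With library totals in place of TMM factors these medians were 3.19 and 0.09. In 98 members every mutant dark library lay above every mutant pre library on scaled counts, which held for 28.5% of all gene IDs tested.

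The exception was rank 87. It had 12.8, 36.0 and 107 CPM at mutant pre in pools 3 to 5 and 269, 118 and 198 CPM at dark, with an edgeR quasi-likelihood adjusted p of 0.0732. With plant pool as a block its adjusted p was 0.0272, and it was 0.0239 without mutant pool 5 and 0.043 without wild-type pool 5. Pool 5 was high at pre in both genotypes, with 301 CPM in the wild type against 22.2 to 56.5 CPM in its other pools. Rank 37 passed with the smallest log2 change, 1.45 (SE 0.44, edgeR quasi-likelihood, adjusted p 0.0073). Its mutant dark values were 177, 1266 and 729 CPM, against 287, 217 and 191 CPM at pre, so it was lower at dark than at pre in mutant pool 3. Without mutant pool 4 its log2 change was 0.76 with an adjusted p of 0.225, and it also no longer passed without mutant pool 5 or in a fit of only the compared groups (edgeR quasi-likelihood).

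For most members the mutant gain lay close to the wild-type gain. The fold was over 2 times larger in the mutant for 8 members and over 2 times larger in the wild type for 2, ranks 31 and 70. Rank 6 gained 20.4-fold in the wild type against 79.2-fold, and rank 38 gained 10.7-fold against 53.1-fold. The mutant dark over pre fold had a median of 9.10 and ran from 3.13 to 131, and 92 members met all 3 thresholds on mutant means. Of the first 100 gene IDs that the same thresholds give on mutant means, 79 were members. Across the 100 members, the log2 folds of the genotypes, from separate libraries, correlated with a Pearson r of 0.841, a description only, since genes are not independent. The 150 gene IDs that met the thresholds but fell beyond the first 100 had a median mutant fold of 6.55. Of these 150, 27 were under 4-fold in the mutant, against 7 of the 100 members. The 150 also had a smaller median wild-type fold, 7.45 against 8.998 for the members.

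**Figure D3:**
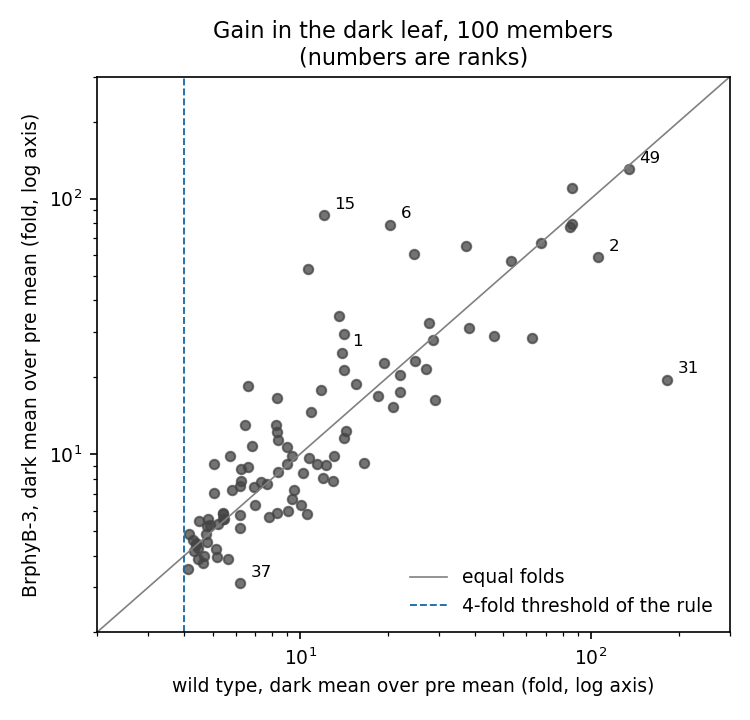
Dark mean over pre mean of each member in the wild type (x axis) and in BrphyB-3 (y axis), as folds of CPM on log axes. Points are members, some marked with their rank. The wild-type folds chose the members and end at 4 (dashed line). Most points lie near equal folds (solid line), rank 31 falls below it with 183-fold against 19.6-fold, and rank 15 lies above it with 12.1-fold against 86.1-fold.

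Dark levels were alike in both genotypes for most members, although the wild-type side of this comparison chose them and no test was made. The median ratio of the mutant to the wild-type dark mean was 0.979. It was 0.5 or less for 3 members, ranks 31, 60 and 87, and reached 2 for 0 members. Rank 31 had 199, 445 and 401 CPM at mutant dark, below 3 of the 4 wild-type libraries. Rank 60 had 132, 156 and 204 CPM at mutant dark, below every wild-type value, which were 962, 292, 539 and 839 CPM.

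At recovery, 24 h after the foil came off, most of the gain was gone. In the mutant, the same leaf was tested at recovery against dark, and all 100 members had a lower fitted level, of which 97 passed (edgeR quasi-likelihood, adjusted p under 0.05). Over all gene IDs tested, 26.6% passed as lower and 28.0% as higher. The dark libraries are the same as in the comparison with pre, so both results share them. The median log2 change was -2.89, against 0.06 over all gene IDs tested. The recovery mean was a median of 11.8% of the dark mean in the mutant. In the wild type, as a description, it was 12.5%. Every member was lower at recovery than at dark within each mutant pool. The same held within each wild-type pool, but there the dark values had chosen the members. In 96 members every mutant dark library lay above every mutant recovery library, which held for 28.5% of all gene IDs tested.

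Ranks 7, 77 and 87 were the 3 that did not pass. Rank 77 had 349, 611 and 703 CPM at mutant dark and 167, 391 and 437 CPM at recovery, with a log2 change of -0.54 (SE 0.40, edgeR quasi-likelihood, adjusted p 0.266). It kept the largest part of its dark level in each genotype, 59.8% for the mutant and 49.8% for the wild type. Rank 7 had an adjusted p of 0.0812 and rank 87 of 0.154 in the same edgeR test. Rank 7 passed with plant pool as a block, at an adjusted p of 0.00473, and without mutant pool 4, at 0.0136.

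BraA01000296, rank 15, and BraA10001774, rank 24, fell furthest. Rank 15 had 2374, 842 and 2512 CPM at mutant dark in pools 3 to 5, and 4.03, 1.08 and 5.53 CPM at recovery. Its log2 change was -8.94 (SE 1.47, edgeR quasi-likelihood, adjusted p 2.03e-05). In wild-type pools 3 to 6 it had 3479, 414, 1040 and 1372 CPM at dark and 1.88, 2.62, 10.7 and 3.43 CPM at recovery. Rank 24 had 2485, 1019 and 2127 CPM at mutant dark and 9.50, 5.55 and 4.28 CPM at recovery, a log2 change of -8.02 (SE 0.89, edgeR quasi-likelihood, adjusted p 1.02e-07). Its wild-type values were 2898, 462, 865 and 840 CPM at dark and 7.42, 13.8, 6.24 and 10.3 CPM at recovery. In the wild type all recovery libraries lay below all pre and 24hr libraries for both members, except pool 5 for rank 15 and pool 4 for rank 24.

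**Figure D4:**
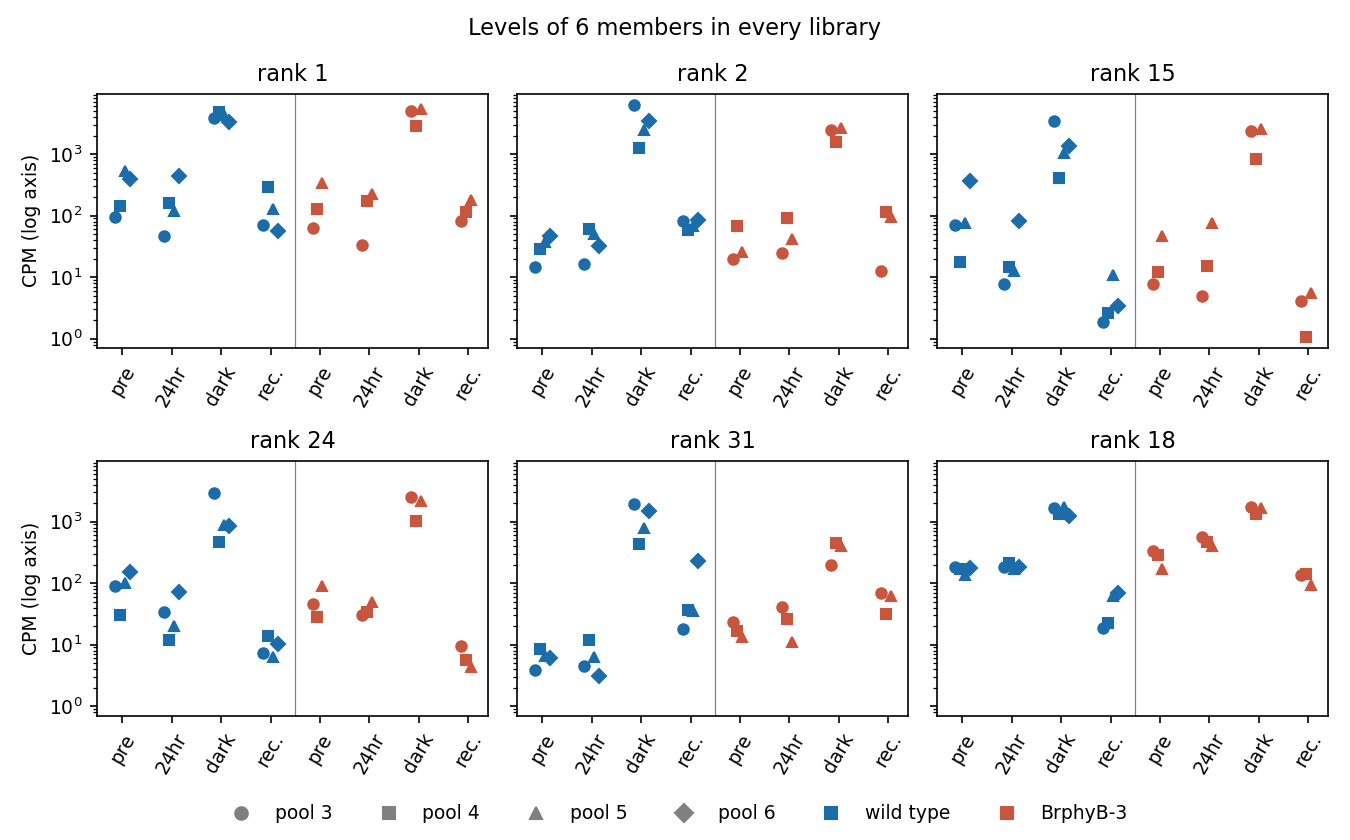
CPM (y axis, log scale) of 6 members in every library by stage (x axis), with wild type to the left of the grey line and BrphyB-3 to the right. Symbols are pools. Ranks 15 and 24 drop at recovery to 13.8 CPM or less in every library, while rank 31 stays at 18.1 CPM or more.

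Whether the members returned to the level of a lit leaf was asked with recovery against 24hr, 2 groups that took no part in the choice in either genotype. Most members did not differ detectably. In the wild type 6 members were higher at recovery and 1 was lower (edgeR quasi-likelihood, adjusted p under 0.05), and over all gene IDs tested 2.16% were higher and 1.58% lower. In 14 members every wild-type recovery library lay above every 24hr library, against 6.33% of all gene IDs tested, and in 2 members below, against 5.81%. In the mutant 0 members were higher and 5 were lower, where over all gene IDs tested 2.38% were higher and 2.94% lower. With plant pool as a block, 9 were higher and 1 lower for wild-type members, and 2 higher and 5 lower for the mutant. In the main fit without the block, 3.74% of all gene IDs passed in both directions together for the wild type and 5.33% for the mutant. A DESeq2 Wald test gave 10 higher and 2 lower for wild-type members, and 3 higher and 6 lower for the mutant. The shares over all gene IDs belong to the main edgeR fit, so they cannot be set against the block or DESeq2 counts.

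These counts changed when 1 pool of either genotype was left out, from 2 to 10 for the wild type and from 0 to 6 for the mutant. A fit with fewer libraries can also call fewer genes, so no single pool is shown to carry the counts. The 7 wild-type calls became 4 without wild-type pool 3 and 2 without wild-type pool 4, 5 or 6. The 5 mutant calls became 3 without mutant pool 3, 2 without mutant pool 4, 0 without mutant pool 5 and 2 without wild-type pool 5. In a fit of only the compared groups the mutant count was 1.

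The members still raised in the wild type were ranks 22, 31, 42, 70, 73 and 78. Rank 31 had 4.46, 12.1, 6.27 and 3.08 CPM at 24hr and 18.1, 36.4, 35.4 and 231 CPM at recovery, a log2 change of 3.53 (SE 0.66, edgeR quasi-likelihood, adjusted p 0.00493). Its groups did not overlap, but pool 6 was far above the rest, and without that pool the change was 1.95 with an adjusted p of 0.113. Rank 22 had 9.01 to 23.6 CPM at 24hr and 26.1 to 115 CPM at recovery, and its log2 change of 2.01 had an adjusted p of 0.0126 (edgeR quasi-likelihood). Ranks 42, 70, 73 and 78 had log2 changes between 1.70 and 2.96. Rank 73 did not pass with plant pool as a block, at an adjusted p of 0.0524. Each of these 6 members lost its call without at least 1 wild-type pool. Rank 49 had the largest fitted change, 4.21, from 0.378 to 6.34 CPM at 24hr to between 18.3 and 103 CPM at recovery. It did not pass (edgeR quasi-likelihood, adjusted p 0.0653) but did with plant pool as a block, at 0.0244, and with only the compared groups, at 0.0311. In rank 70 pool 4 reached 327 CPM at recovery against 23.6 to 56.6 CPM in the other pools.

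Rank 18 was the only member that passed as lower than 24hr in both genotypes, though others, such as ranks 3, 15 and 24, also had lower means in both. In the wild type it had 180, 216, 168 and 182 CPM at 24hr and 18.8, 22.9, 62.1 and 69.5 CPM at recovery, a log2 change of -2.14 (SE 0.30, edgeR quasi-likelihood, adjusted p 0.000723). In the mutant it had 555, 460 and 403 CPM at 24hr and 135, 143 and 94.9 CPM at recovery, a log2 change of -1.84 (SE 0.34, edgeR quasi-likelihood, adjusted p 0.00301). Neither pair of groups overlapped. Without mutant pool 5 the mutant change had an adjusted p of 0.0788 (edgeR quasi-likelihood). Ranks 3, 8, 24 and 48 were the other 4 lower in the mutant, with log2 changes from -2.48 to -0.98, and each lost its call without mutant pool 5. The most positive mutant change was 2.85, for rank 79, which did not pass (edgeR quasi-likelihood, adjusted p 0.0822) but did by DESeq2, at 0.023. Rank 15 had the most negative fitted change in both genotypes, -2.55 and -3.14, but did not pass in either, with adjusted p-values of 0.158 for the wild type and 0.133 for the mutant (edgeR quasi-likelihood).

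Recovery relative to 24hr was set beside the size of the wild-type gain, a value that chose the members. The 9 members with a wild-type gain of at least 50-fold had a median recovery level of 404% of 24hr for the wild type and 208% for the mutant. The 36 members with gains from 10-fold to under 50-fold had 132% and 92.7%, and the 55 with smaller gains 104% and 101%. All 9 of the highest class were above 24hr for wild-type means, and 8 of the 9 for mutant means. Their absolute levels were low, with a median of 68.3 CPM at wild-type recovery against 15.2 CPM at 24hr. Only the wild-type values were ordered by class. Classed by the mutant gain instead, the 12 members with at least 50-fold had a median mutant recovery of 115% of 24hr, with 7 of the 12 above it, against 92.3% for 31 members from 10-fold to under 50-fold and 101% for the other 57. These are descriptions of chosen classes and no test was made.

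**Figure D5:**
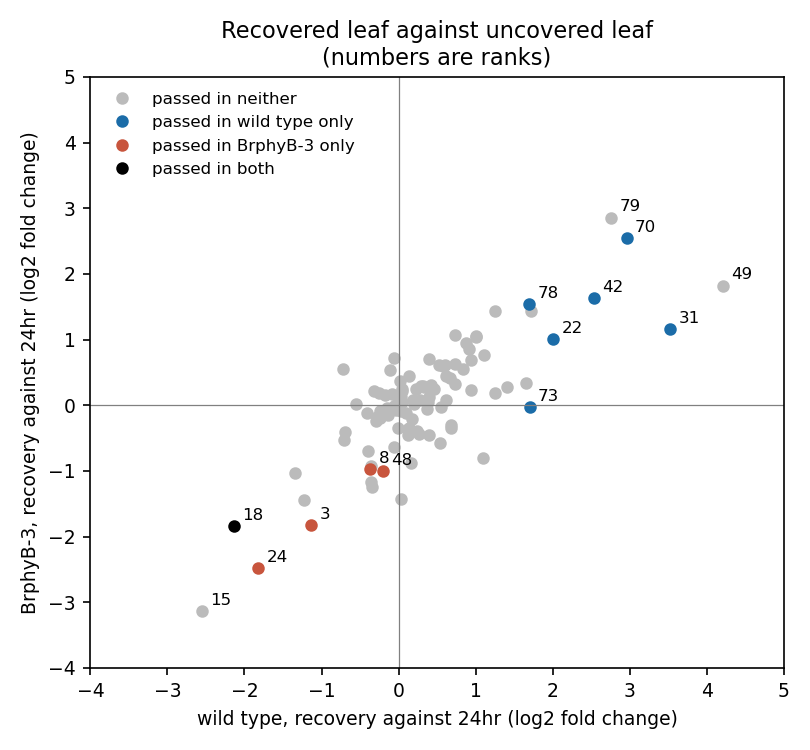
Fitted log2 fold change of recovery against 24hr for each member in the wild type (x axis) and in BrphyB-3 (y axis). Colours give the genotype in which the change had an adjusted p under 0.05 (edgeR quasi-likelihood), and numbers are ranks. Members spread along a common diagonal, with rank 18 passing in both.

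The changes from 24hr to recovery had the same sign in both genotypes for 72 of the 100 members, and the log2 ratios of the group means correlated across members with a Pearson r of 0.795. Neither value was worked out over all gene IDs tested, so neither is shown to be particular to the members. Whether the changes differed between the genotypes was tested as genotype by stage. There were 0 calls among members and 0 over all gene IDs by edgeR's quasi-likelihood test, with 6 members and 831 gene IDs at an unadjusted p under 0.05, and 0 members by DESeq2. The fitted differences ran from -2.39 at rank 49 to 1.27 at rank 28, and the latter turned to -0.45 without wild-type pool 6. The uncovered leaf itself, 24hr against pre in the mutant, gave 0 members by edgeR and by DESeq2, where 0.0% of all gene IDs tested passed by edgeR, with 3 members and 855 gene IDs at an unadjusted p under 0.05. Its members ranged from -1.72 at rank 28 to 1.55 at rank 41 on the log2 scale.

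The genotypes were tested against each other at 24hr and at recovery, the stages that had not been used to choose members. Rank 21 was lower in the mutant at both. At 24hr it had 175, 157, 157 and 224 CPM in wild-type pools 3 to 6 and 70.4, 55.2 and 59.5 CPM in mutant pools 3 to 5. Its log2 difference was -1.67 (SE 0.27, edgeR quasi-likelihood, adjusted p 0.00677). At recovery the wild-type pools had 160, 145, 112 and 125 CPM and the mutant pools 35.4, 36.4 and 35.9 CPM, a log2 difference of -1.97 (SE 0.28, edgeR quasi-likelihood, adjusted p 0.00171). The groups did not overlap at either stage. Over 13 alternative settings the adjusted p stayed under 0.05 at recovery, while at 24hr the call was lost without wild-type pool 5 or mutant pool 5, with a highest adjusted p of 0.0564.

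The other stages of rank 21 are a description, since their wild-type values entered the choice. At pre the wild-type libraries had 221, 203, 195 and 235 CPM and the mutant ones 67.3, 54.0 and 59.99 CPM. At dark the wild-type libraries had 1746, 1412, 1377 and 1003 CPM and the mutant ones 1298, 582 and 476 CPM. The gain was 6.48-fold for the wild type and 13.0-fold for the mutant, from a lower start, and mutant pool 3 overlapped the wild-type dark range.

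Rank 18 was the 1 other member called between genotypes. At recovery it was higher in the mutant, with a log2 difference of 1.48 (SE 0.31, edgeR quasi-likelihood, adjusted p 0.0412) and no overlap of groups. The call was fragile, with an edgeR adjusted p of 0.515 when only the compared groups were fitted. It was lost without each pool but wild-type pools 5 and 6. At 24hr rank 18 was also higher in every mutant library but did not pass, with an edgeR adjusted p of 0.163. Over all gene IDs tested, 0.072% were called lower and 0.072% higher in the mutant at 24hr, and 0.144% and 0.064% at recovery, 0.208% in all.

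Rank 60 had the most negative difference at both stages, -2.40 at 24hr and -2.38 at recovery on the log2 scale, and it did not pass in the edgeR test, with adjusted p-values of 0.187 and 0.160, though it passed by DESeq2 at 0.0253 and 0.017. Its 24hr values were 52.0, 163, 160 and 83.5 CPM in wild-type pools and 7.17, 42.8 and 21.6 CPM in mutant pools, with no overlap. The most positive difference at 24hr was 1.81, for rank 31, with an edgeR adjusted p of 0.444.

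Dark levels varied between pools, and unequally between members. The coefficient of variation over the 4 wild-type dark libraries had a median of 0.283 and ran from 0.0535 to 0.997. For the 594 gene IDs that met both CPM thresholds but had under 4 times the pre mean, the median in these libraries was 0.174. These libraries chose the members, and a gene with 1 very high dark pool enters the set more easily, so the spread is a description only. Pool 3 was the highest of the 4 wild-type dark libraries for 58 members and pool 4 the lowest for 56. Among the 18 members with a coefficient above 0.5, pool 3 was highest for 16.

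Rank 38 was the most variable, with 2453, 273, 581 and 659 CPM at wild-type dark in pools 3 to 6. Rank 57 followed with 1667, 242, 465 and 512 CPM, and ranks 15 and 24 had the same order of a high pool 3 and a low pool 4. In the mutant, the 18 members had a median coefficient of 0.381 at dark against 0.216 for the other 82. Mutant dark pool 5 was highest for 12 of these 18. It was highest for 57 members in the whole set, so a high pool 5 was not particular to the 18. Wild-type dark pool 3 also had the lowest scaling factor of its group, 1.04 against 1.19 to 1.24, and pool 4 the lowest total count. Their part in this spread was not tested.

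In the lit leaf a different wild-type pool stood high for several of these members. At 24hr pool 6 had 81.1 CPM of rank 15 against 7.75 to 14.4 CPM in the other pools, 195 CPM of rank 28 against 16.0 to 31.7 CPM, and 150 CPM of rank 38 against 21.6 to 39.4 CPM. At pre, from the same leaves a day earlier, pool 6 was again the highest for rank 15, with 359 CPM against 17.8 to 74.6 CPM, and for rank 38, with 178 CPM against 51.7 to 83.8 CPM. For rank 28 it was not, with 305 CPM against 377 CPM in pool 5, 218 CPM in pool 3 and 49.8 CPM in pool 4.

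By the prefix of their IDs, members fell in all 10 series from A01 to A10, with 17 in A09, 15 in A06 and 13 in A03. These series hold 14.2, 10.5 and 14.5% of the gene IDs tested. The Sca series, with 0.936% of the gene IDs tested, held 0 members. In ID order 3 pairs of members lay within 10 places of each other, ranks 15 and 52, ranks 19 and 49, and ranks 23 and 84. The number for gene IDs picked at random was not worked out.

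The edges of the set were not sharp. Ranks 98, 99 and 100 had wild-type dark means of 459, 458 and 453 CPM, and the next 3 gene IDs had 440, 438 and 436 CPM. The smallest folds inside were 4.12, 4.14 and 4.29, and the largest outside at a member's dark level were 3.97, 3.92 and 3.91. The pre threshold removed 10 gene IDs with at least 200 CPM at dark, 1 of them with 3263 CPM at dark and 0.502 CPM at pre.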

How the data were processed

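The authors deposited raw counts, as whole numbers for each gene ID in each library and without normalization. Per the submitters' processing notes the tools were bcl2fastq 2.17.1.14, Trimmomatic 0.36, Bowtie2 and HTSeq. Genome build, annotation and use of strand were not given in the sources used here, so values of genes with a near copy, an overlapping neighbour or an antisense partner are uncertain. Single reads of 80 bases came from poly(A)-selected RNA, per the labels' protocols.

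Members and comparisons were chosen with earlier results of these data known. Levels are CPM by column total. Tests used R 4.3.3 and edgeR 4.0.16: filterByExpr (24992 gene IDs, all 100 members among them), TMM factors, 8 group means over 28 libraries, the quasi-likelihood test with the newer dispersion (legacy=FALSE), and Benjamini-Hochberg adjustment over all gene IDs tested. The common biological coefficient of variation was 0.365. SE is the log2 change over the square root of F, so it is approximate. The procedure was tested on simulated data.

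Same-numbered pools of a genotype are the same plants, per the labels' protocols. Their deviations from group means had a median correlation of 0.0955, against -0.0344 between other pools of that genotype.

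Members were named by rank under a written rule: ranks 1 to 10, the highest, median and lowest fold, the extremes of variation and of each contrast, and those beside each threshold. The IDs printed are 2 that rose and 2 that fell. Ranks 19, 21, 22, 23, 42, 48, 52, 70, 73, 78, 84 and 87 were added after their values were seen. Alternatives were RLE scaling, column totals alone, no low-count filter, DESeq2 1.42.0 with its Wald test, only the compared groups, a replicate block, leaving out each pool, and the legacy dispersion, the last added after seeing the data. No sequence was printed, since no ID matched the reference.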

Additional observations from a re-analysis of the deposited data

Results flagged for a closer look

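In sets of 4 wild-type libraries, a value was singled out where its gap to the nearest other library took up most of the range (Dixon's test at the 95% level). Of 132 sets examined, 20 had such a value, and chance gives about 1 in 20 sets. That rate does not apply here as it stands, since many of these members were named for extreme values, the pre and dark sets entered the choice of members, and the sets share libraries.

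Pool 6 held 13 of them, each on the high side. At pre these were rank 3 with 412 CPM, rank 15 with 359 CPM and rank 22 with 22.2 CPM. At 24hr they were rank 3 with 361 CPM, rank 6 with 102 CPM, rank 8 with 133 CPM, rank 15 with 81.1 CPM, rank 28 with 195 CPM, rank 38 with 149.9 CPM and rank 42 with 12.2 CPM. At recovery they were rank 31 with 231 CPM, rank 49 with 103 CPM and rank 77 with 413 CPM.

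The other 7 were spread over the other pools. Pool 5 at pre had 42.9 CPM of rank 79 and 301 CPM of rank 87. Pool 3 was low at pre for rank 60, with 29.7 CPM, and at 24hr for rank 48, with 57.8 CPM. Pool 3 was high at dark for rank 24, with 2898 CPM. Pool 4 was low at dark for rank 4, with 1775 CPM, and high at recovery for rank 70, with 327 CPM.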

How the results depend on the processing

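The mutant counts stayed within 1.5 times under every alternative run for dark against pre, which gave 99, and for recovery against dark, which gave 97. Without 1 pool they ran from 98 to 100 and from 93 to 97. Smaller counts moved. By the DESeq2 Wald test, 9 members passed in mutant recovery against 24hr, 12 in wild-type recovery against 24hr, and between genotypes 3 at 24hr and 4 at recovery. With only the compared groups, 1 passed in mutant recovery against 24hr and 1 between genotypes at recovery, where the legacy dispersion also gave 1. Without 1 pool, mutant recovery against 24hr ranged from 0 to 6, wild-type recovery against 24hr from 2 to 10, and the genotype comparison from 0 to 1 at 24hr and from 1 to 3 at recovery. Of the latter, 1 remained without wild-type pool 4 or any mutant pool, and 0 at 24hr without wild-type pool 5 or mutant pool 5.

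Same-numbered pools of different genotypes share only a number by the labels. Over 12 such pairs at a common stage their deviations correlated with a median of 0.258, from -0.0519 to 0.529, which is above the median of pools from the same plants. With that number as a replicate block 1 member passed between genotypes at recovery, and rank 18 had an adjusted p of 0.0585. Plant pool as a block gave 100 and 98 in the mutant for the first comparisons above, 7 for mutant and 10 for wild-type recovery against 24hr. Among the members named, the block changed no call besides those of ranks 7, 18, 49, 73 and 87.

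Choosing members without 1 wild-type pool moved their share at mutant pre from 0.989% to between 0.987 and 1.04%, and 88 to 94 of the 100 members were shared. With TMM-scaled library sizes 182 gene IDs met the thresholds, and 83 members were shared. The genotype by stage difference of rank 28, 1.27, ran from -0.45 without wild-type pool 6 to 1.86 without mutant pool 5. The cause was not tested. A p that misses the threshold does not show equal levels.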
